A study of Mus musculus with 6 samples.

Results

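Serum amyloid A proteins, orosomucoids and pentraxins are plasma proteins whose genes respond to inflammation, and 10 such mouse genes were followed in cystic kidneys with and without miR-214. The genes are Saa1, Saa2, Saa3 and Saa4, Orm1, Orm2 and Orm3, and the pentraxin genes Crp, Apcs and Ptx3. They were selected by name from the 20138 genes of the authors' deposited table, and all 10 are listed there. The choice was made with their folds in this contrast already known, so the folds below describe the genes and are not a test of them.

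RNA was sequenced from frozen whole kidneys of 6 mice at postnatal day 35, 3 per genotype; the labels name a total-RNA library kit and the series text polyA selection. The first genotype, called Pkd2-KO here, is Pkhd1Cre; Pkd2 F/F, in which Cre under the Pkhd1 promoter, active mainly in kidney tubules, removes floxed Pkd2. The second, called Pkd2-miR-214-KO, is Pkhd1Cre; Pkd2 F/F; miR-214null and carries in addition a null allele of miR-214. Both genotypes therefore carry the same Pkd2 deletion, no kidney with intact Pkd2 enters the comparison, and the sex and litter of the animals are not given in the labels. The labels do not say whether the null allele is homozygous. Values per animal were not analysed here: the depth of the libraries is unknown, and each value is a fold fitted by the authors over 3 against 3 animals. The direction of the folds was taken from Mir214, at -7.62 ± 1.08 (log2 fold, approximate SE) in the authors' deposited table, so that a positive value means a higher level in Pkd2-miR-214-KO. Mir214 therefore cannot serve as a check of the labels. Dnm3os, the host transcript of Mir214, stood at -1.23 ± 0.37 (adjusted p = 0.213, edgeR) there. Pkd2, floxed in both genotypes, had a log2 fold with an approximate interval of -0.55 to 0.33. Kidney identity was plain in the levels, with mean log2 CPM (the log of read counts scaled to library size) of 12.47 for Kap and 11.29 for Slc34a1, both proximal tubule genes.

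In the acute-phase response, interleukin-6, interleukin-1 and related cytokines act through STAT3, C/EBP and NF-kB factors on liver genes, and the liver then secretes serum amyloid A, orosomucoid and pentraxins into plasma. Serum amyloid A travels on high-density lipoprotein and can deposit as amyloid, orosomucoid binds drugs and small lipophilic molecules, and pentraxins are ring-shaped proteins that bind microbes and dying cells and engage complement. In mice Saa1 and Saa2 are strongly inducible in the liver, Saa3 is made largely outside it by macrophages, fat and epithelia, and Saa4 is the constitutive form. Ptx3 is also made outside the liver, by myeloid, endothelial and stromal cells, and the serum amyloid P gene Apcs is the main acute-phase pentraxin of mice.

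The upstream sequences of 5 genes are shown: those of Orm2, Saa3 and Saa4, the genes past the adjusted threshold described next, and those of a paralog from each cluster, Orm3 and Saa1. They run from 250 bases before to 50 bases after the annotated start, from RefSeq on GRCm38.p6, the assembly of mm10, and 9 of the 10 genes matched, all but Orm1. Capitals mark letters that match a C/EBP motif (TTNNGNAA) or an NF-kB motif (GGGNNNNNCC) on either strand. In Saa1 the last match to the first motif and the match to the second adjoin without overlap, and in the other 4 sequences the matches are apart.
Orm2, chr4:63362199-63362498, plus strand: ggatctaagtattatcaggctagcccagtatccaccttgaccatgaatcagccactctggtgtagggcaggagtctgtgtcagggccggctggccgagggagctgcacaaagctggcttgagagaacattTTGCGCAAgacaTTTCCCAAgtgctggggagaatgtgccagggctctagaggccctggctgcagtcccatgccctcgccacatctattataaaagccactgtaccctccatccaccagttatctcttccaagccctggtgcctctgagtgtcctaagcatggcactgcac
Orm3, chr4:63355908-63356207, plus strand: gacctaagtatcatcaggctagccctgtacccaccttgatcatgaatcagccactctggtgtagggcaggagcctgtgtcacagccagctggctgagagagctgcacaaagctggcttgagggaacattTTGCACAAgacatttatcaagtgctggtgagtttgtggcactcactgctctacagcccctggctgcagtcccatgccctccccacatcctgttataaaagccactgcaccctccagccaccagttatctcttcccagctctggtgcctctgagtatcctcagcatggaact
Saa3, chr7:46715627-46715926, minus strand: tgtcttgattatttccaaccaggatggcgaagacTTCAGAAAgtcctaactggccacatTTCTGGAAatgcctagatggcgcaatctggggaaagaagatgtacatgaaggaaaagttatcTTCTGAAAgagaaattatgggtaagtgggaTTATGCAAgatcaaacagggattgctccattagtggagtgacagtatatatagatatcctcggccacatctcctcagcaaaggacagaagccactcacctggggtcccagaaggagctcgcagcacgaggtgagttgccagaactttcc
Saa4, chr7:46732554-46732853, minus strand: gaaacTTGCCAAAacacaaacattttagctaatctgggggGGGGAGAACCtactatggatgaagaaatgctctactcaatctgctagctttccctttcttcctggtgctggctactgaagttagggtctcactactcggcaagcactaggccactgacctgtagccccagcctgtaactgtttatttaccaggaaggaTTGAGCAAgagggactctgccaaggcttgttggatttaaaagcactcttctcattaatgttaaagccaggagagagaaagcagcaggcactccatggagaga
Saa1, chr7:46742931-46743230, minus strand: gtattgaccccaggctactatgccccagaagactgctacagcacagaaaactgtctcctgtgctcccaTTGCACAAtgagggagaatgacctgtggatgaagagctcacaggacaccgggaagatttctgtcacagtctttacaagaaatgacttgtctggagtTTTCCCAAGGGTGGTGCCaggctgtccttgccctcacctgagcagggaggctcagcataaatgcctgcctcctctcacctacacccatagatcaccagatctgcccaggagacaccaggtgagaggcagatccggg

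The Orm2 and Orm3 sequences were 89.2% identical over 263 identical and 32 mismatched bases. Orm2 held C/EBP matches at positions -120 (TTGCGCAA) and -108 (TTTCCCAA) from the start, and Orm3 held 1 at -121 (TTGCACAA). Saa3 held 4 C/EBP matches, at -216, -191, -129 and -99, and no NF-kB match. Saa4 held C/EBP matches at -245 and -52 and an NF-kB match at -210. The Saa1 and Saa2 sequences were 96.0% identical, while Saa3 and Saa4 were 63.2% identical to each other. Over the 9 sequences, 8 held a C/EBP match, against 40.7% of 32851 promoters of the same length. An NF-kB match was in 5 of 9, against 50.8%, and a TATA box (TATAAA, either strand) in 3 of 9, against 13.6%. The STAT motif (TTCNNNGAA) matched in Apcs alone, against 8.30% of all promoters. These are matches of short letters, which do not show that a factor binds, and the search covered this window alone.

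Among the 10 genes, 3 passed the adjusted threshold of 0.05 in the authors' deposited table, all with positive folds: Saa3, Saa4 and Orm2. These calls depend on the adjustment: 1 (Saa3) passed where genes below 0 mean log2 CPM were left out, and 0 passed under Benjamini-Yekutieli, Bonferroni or an F distribution. Of all 20138 genes, 0.104% passed in that direction and 0.0199% passed in the other. Without adjustment 6 of the 10 had a p under 0.05, all higher in Pkd2-miR-214-KO, against 3.1% of all genes higher and 1.71% lower. All 10 log2 folds were above 0, against 49.8% of all genes, and 8 were above 1, against 6.77%. Their median log2 fold was 2.69, and that of all genes was 0.00. Because the genes were chosen with these folds known, nothing is read from these shares. The plot of folds by gene shows the range, from an orosomucoid with an interval around 0 to a serum amyloid gene with a log2 fold above 7.

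**Figure D1:**
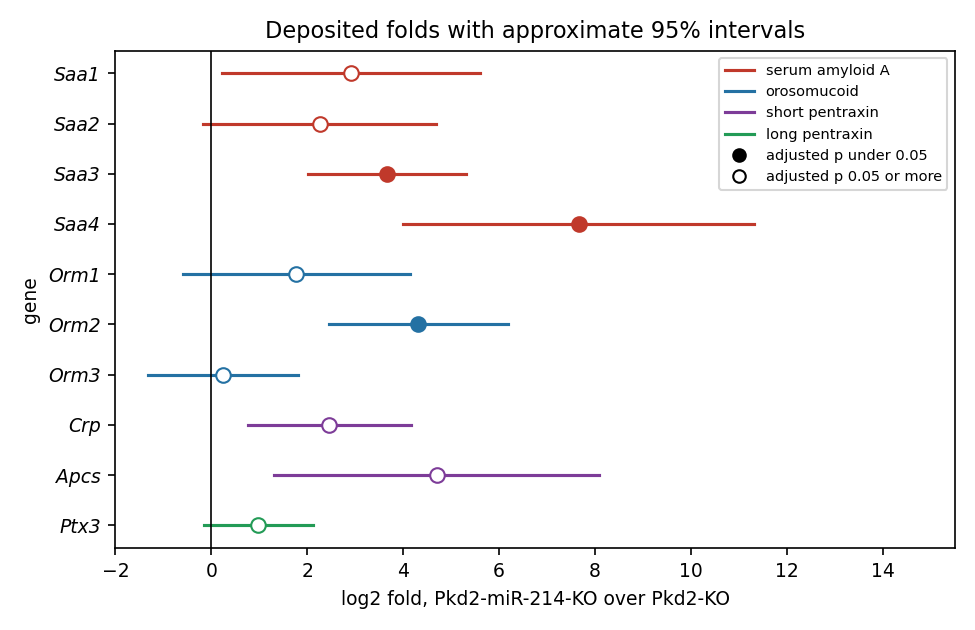
Log2 fold of each gene (x axis, Pkd2-miR-214-KO over Pkd2-KO) from the authors' deposited table, with an approximate 95% interval as a line and the gene family as colour. Filled points mark adjusted p under 0.05, and the intervals of Saa2, Orm1, Orm3 and Ptx3 include 0.

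The 4 serum amyloid A genes lie within 42.3 kb of chromosome 7 on mm10. Saa3 (46711998 to 46715700, minus strand, 4 exons) was the highest of them in level, at a mean of 3.99 CPM over all libraries. The authors' deposited table gives Saa3 a log2 fold of 3.66 ± 0.84 (SE; adjusted p = 0.0165, edgeR), a 12.6-fold difference with an approximate 95% interval of 4.02 to 39.7. Taken with the mean, that fold implies about 0.585 CPM in Pkd2-KO and 7.39 CPM in Pkd2-miR-214-KO. By p, Saa3 stood at rank 17 of the table.

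Saa4 (46727998 to 46732603, minus strand, 4 exons), the constitutive form in background terms, stood at rank 8 by fold among all genes in the authors' deposited table. Its log2 fold was 7.66 ± 1.87 (SE; adjusted p = 0.0354, edgeR), with an approximate interval of 4.0 to 11.32, at a mean of 0.478 CPM. A fold of that size at so low a mean leaves almost no signal in Pkd2-KO, where a fitted fold depends on the prior count, so its size is not a measured ratio.

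The liver-inducible pair lies next to it, head to head on opposite strands. Saa1 (46740497 to 46742980, minus strand) stood at a log2 fold of 2.92 ± 1.37 (SE; p = 0.0332, adjusted p = 0.905, edgeR), again per the authors' deposited table, at a mean of 0.526 CPM. Saa2 (46751790 to 46754313, plus strand) had 2.26 ± 1.24 (SE; adjusted p = 1, edgeR) at 0.263 CPM there. Neither passed, and both intervals were wide, from 0.23 to 5.61 for Saa1 and from -0.17 to 4.68 for Saa2. The 2 transcripts were 94.4% identical where aligned, and 13.2% of the 50-base stretches of Saa1 occurred in Saa2. No 100-base stretch was shared, so how far reads could be assigned to the wrong copy depends on the read length, which is not given in the sources used here.

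The 3 orosomucoid genes lie within 21.3 kb of chromosome 4 on mm10, each with 6 exons on the plus strand. In the authors' deposited table Orm2 (63362449 to 63365878) stood at a log2 fold of 4.32 ± 0.95 (SE; adjusted p = 0.00815, edgeR), at a mean of 0.681 CPM. That fold implies about 0.065 CPM in Pkd2-KO, so the size of the Orm2 fold also depends on the prior count. Among the 10 genes the p of Orm2 was the smallest. Orm1 (63344560 to 63348163), the most abundant of the orosomucoid genes here at 1.74 CPM, stood at 1.77 ± 1.21 (log2 fold; adjusted p = 1, edgeR) there, with an interval of -0.60 to 4.14. Orm3 (63356162 to 63359511), which lies between them, had 0.24 ± 0.80 (adjusted p = 1, edgeR) with an interval of -1.32 to 1.81 at 0.299 CPM in the authors' deposited table. That interval still covers a 3.50-fold rise, so an unchanged level of Orm3 was not shown. The promoter printed for Orm3 was 89.2% identical to that of Orm2 where aligned, though Orm2 alone holds the C/EBP match at -108. Their deposited log2 folds were 0.24 and 4.32. Differences in log2 fold between printed genes of a family were taken with independent errors. For Orm2 minus Orm3 the approximate interval was 1.63 to 6.51, which excludes 0, both genes being low. The serum amyloid genes were compared in the same way. The approximate interval was -3.89 to 2.42 for Saa1 minus Saa3 and -8.02 to 0.01 for Saa3 minus Saa4. For Saa1 minus Saa4 it was -9.28 to -0.20, which excludes 0, though the size of the Saa4 fold is not a measured ratio. Orm1 and Orm2 transcripts were 91.0% identical, 20.4% of the 50-base stretches of Orm1 occurred in Orm2, and 6.95% of its 100-base stretches did. The values of these paralogs are therefore uncertain, since the authors' handling of reads with several matches is not given in the sources used here.

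The short pentraxin genes Crp and Apcs lie on chromosome 1, in a span of 197.0 kb that includes the long annotated form of Crp. Crp (main transcript 172698055 to 172699962, plus strand, 2 exons) is the C-reactive protein gene. Its log2 fold was 2.46 ± 0.87 (SE; p = 0.00470, adjusted p = 0.424, edgeR) per the authors' deposited table. Apcs (172893961 to 172895041, minus strand, 2 exons) is the serum amyloid P gene. Its log2 fold there was 4.70 ± 1.73 (SE; adjusted p = 0.509, edgeR), with an interval of 1.31 to 8.09. Both were near 1 CPM, with means of 0.970 and 0.899 CPM. The Apcs fold implies about 0.067 CPM in Pkd2-KO, so its size depends on the prior count too. The fold of Apcs was larger than that of Orm2, yet its SE was 1.73 against 0.95 and it did not pass.

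The long pentraxin gene Ptx3 (chromosome 3, 66219910 to 66225805, plus strand, 3 exons) stood at 0.98 ± 0.58 (log2 fold, SE; adjusted p = 1, edgeR) per the authors' deposited table, at 0.535 CPM. It lies inside Veph1 on the opposite strand, which stood at 0.27 ± 0.20 there, and the use of strand in counting is not given. Of the other pentraxin genes in the table, Nptxr (0.80 ± 0.36), Nptx2 (0.75 ± 0.62) and Nptx1 (0.66 ± 0.58) had positive log2 folds, and Svep1 (-0.36 ± 0.23) and Ptx4 (-1.72 ± 1.5) negative ones. None of these 5 passed the adjusted threshold in the authors' deposited table. Ptx4 had a mean log2 CPM of -4.12, near the floor of the table.

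**Figure D2:**
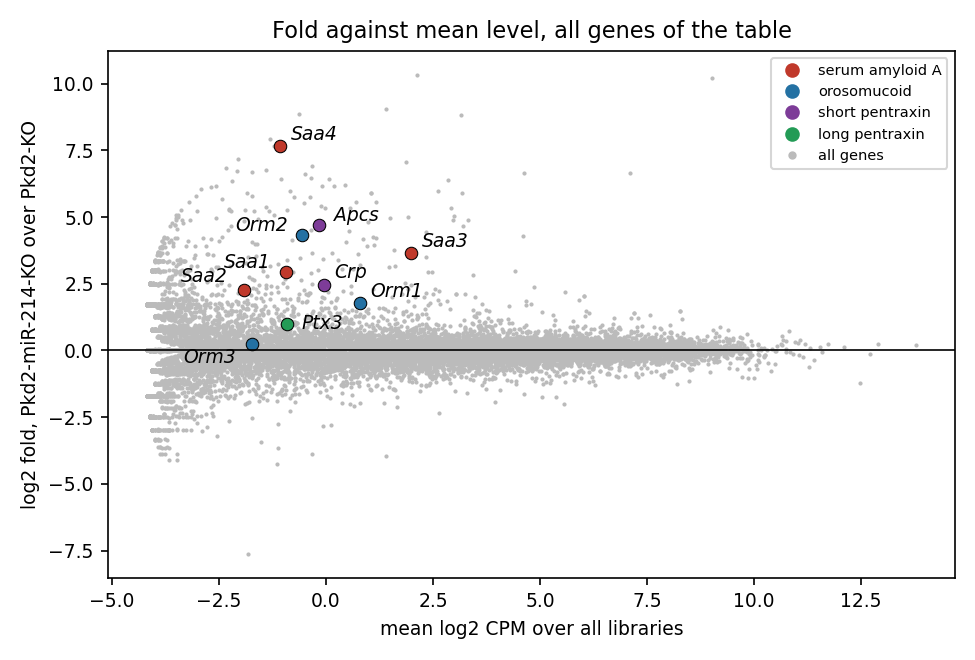
Log2 fold (y axis) against mean log2 CPM (x axis) in the authors' deposited table, with the 10 genes coloured by family over all 20138 genes in grey. The 10 genes sit at the low end of expression, between -1.93 (Saa2) and 2.0 (Saa3) mean log2 CPM, where folds of all genes spread widely.

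Levels were low throughout. Per kilobase of main transcript, Saa3 stood highest at a mean of 7.18 CPM per kb, followed by Orm1 at 2.25. Apcs (0.926), Orm2 (0.879) and Saa1 (0.864) came next on the same scale, then Crp (0.572), Saa2 (0.403), Orm3 (0.387), Ptx3 (0.282) and Saa4 (0.228). These are means over both genotypes with no spread, so neighbours in this order cannot be separated, and the order within a genotype can differ because the folds do. For the 2 genes above 1 CPM, the implied level in Pkd2-KO was 1.05 CPM per kb for Saa3 and 1.02 for Orm1. In Pkd2-miR-214-KO it was 13.3 CPM per kb for Saa3 and 3.47 for Orm1. In the ranking of all genes by mean log2 CPM, the genes lay between the 19.9 percentile (Saa2) and the 37.1 percentile (Saa3).

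The error of the folds was larger than usual for such levels. Each gene was set beside the 500 genes nearest to it in mean log2 CPM. The approximate SE lay at the 99.0 percentile of those genes for Saa4, 98.8 for Apcs, 98.6 for Saa3 and Orm1, and 98 for Saa1. It was at 96.6 for Saa2, 94.6 for Orm2, 93.6 for Crp and 78.2 for Orm3. Ptx3 alone had an SE under the median of its neighbours, at the 40.8 percentile. The SE is computed from the fold itself, and the lowest percentiles belonged to the smallest log2 folds, Ptx3 (0.98) and Orm3 (0.24). A high percentile is therefore not a measure of spread between animals alone. Spread between animals enters this SE, but neither that spread nor which animals were high can be read from the table.

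**Figure D3:**
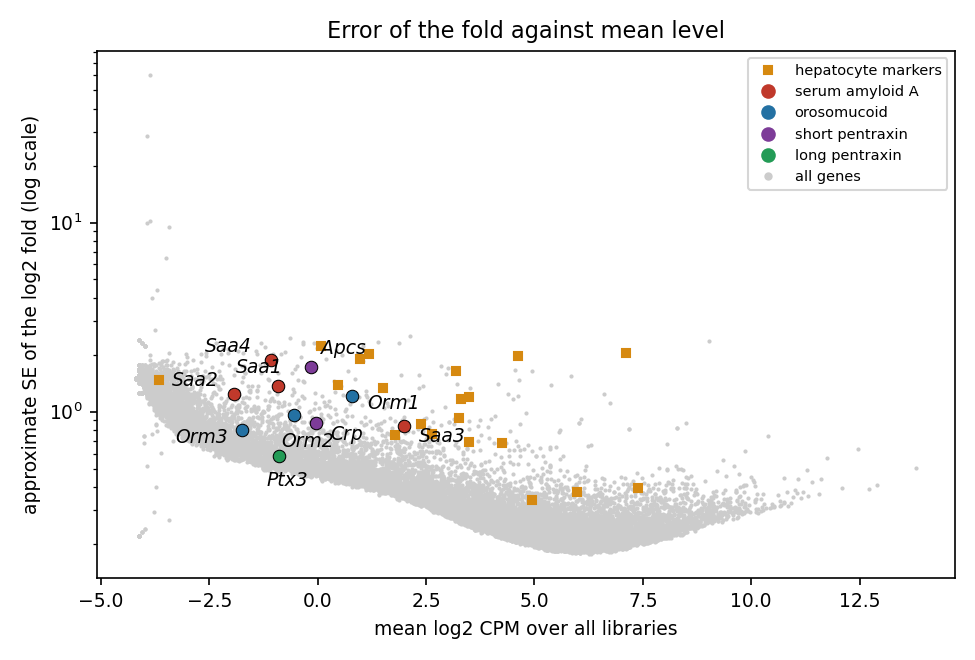
Approximate SE of the log2 fold (y axis, log scale) against mean log2 CPM (x axis) for all genes (grey), hepatocyte markers (squares) and the 10 genes (coloured by family). Ptx3 lies inside the band of all genes at an SE of 0.58, while Saa4 (1.87) and Apcs (1.73) lie above it, as do many hepatocyte markers at higher levels.

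Genes next to the clusters were compared to see whether the folds extend along the chromosome. Around the serum amyloid A genes, the 6 nearest protein-coding genes in the table had log2 folds from -0.14 to 0.89, and 0 of 6 had an unadjusted p under 0.05 in the authors' deposited table. They were Sergef (0.21 ± 0.29), Tph1 (0.89 ± 0.62), Saal1 (-0.11 ± 0.26), Hps5 (-0.14 ± 0.21), Gtf2h1 (0.07 ± 0.21) and Ldha (0.30 ± 0.29). Around the orosomucoid genes, Col27a1 (0.10 ± 0.25) and Akna (-0.21 ± 0.30) flank the cluster directly in the authors' deposited table. Farther out lie Whrn (-0.19 ± 0.29), Atp6v1g1 (0.05 ± 0.24), Kif12 (-0.50 ± 0.23) and Ambp (2.51 ± 0.73). Ambp, which encodes the plasma protein alpha-1-microglobulin and is a liver gene, had an unadjusted p of 0.000572 and an adjusted p of 0.195 (edgeR) there. Around Crp and Apcs, log2 folds in the authors' deposited table ran from -1.72 (Olfr16) to 2.85 (Fcer1a), both barely expressed. Between them lay Slamf8 (-1.45 ± 0.59), Dusp23 (-0.09 ± 0.25), Fcrl6 (0.01 ± 1.32) and Ackr1 (1.02 ± 0.72). Among the 7 genes around Ptx3, Veph1 included, they ran from -0.27 (Mlf1) to 0.34 (Tiparp). Over all 25 neighbours the median was 0.04, and 0 had an adjusted p under 0.05 in the authors' edgeR test. An unadjusted p under 0.05 was found for 4 of the 25, against 4.82% of all genes. Of these 4, 2 lay around the orosomucoid genes and 2 around Crp and Apcs.

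**Figure D4:**
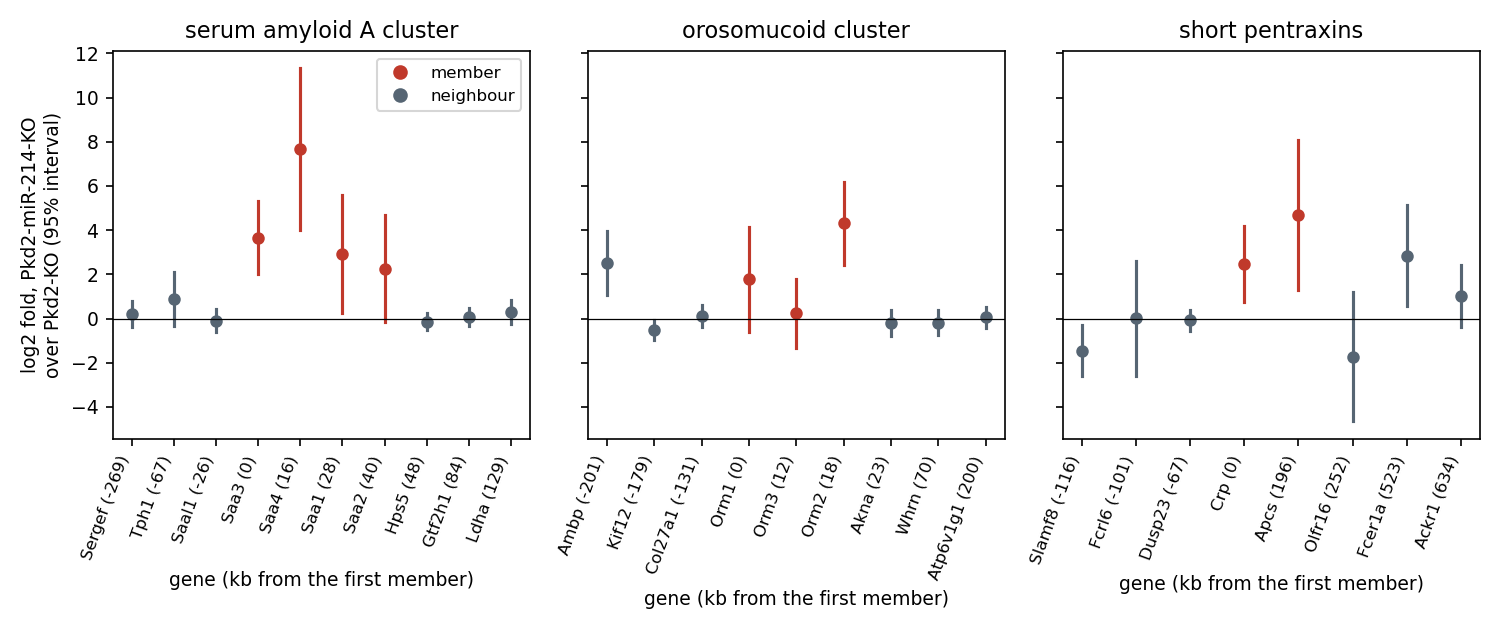
Log2 folds (y axis) with approximate 95% intervals for 3 clusters and their nearest protein-coding neighbours, ordered along the chromosome with the distance from the first member in kb (x axis). Direct neighbours of the Saa and Orm genes lie near 0, such as Saal1 (-0.11), Hps5 (-0.14), Col27a1 (0.10) and Akna (-0.21).

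Cytokines and factors that drive the acute-phase genes ranged in log2 fold from -0.51 to 0.68. This list and the gene and marker lists that follow were chosen with earlier results of these data known. Nothing is read from their counts or shares. Of 29 inducers and signalling genes in the table, 13 had a positive log2 fold and 16 a negative one (median -0.04). In the authors' edgeR test 0 had an adjusted p under 0.05 and 0 an unadjusted one, against 0.124% and 4.82% of all genes. The authors' deposited table gives log2 folds of -0.16 ± 0.57 for Il6, -0.09 ± 0.38 for Il1b and -0.23 ± 0.47 for Tnf. Those with the smallest p were Hnf4a (-0.51 ± 0.32), a liver and tubule transcription factor, Il1a (0.62 ± 0.46), the NF-kB inhibitor gene Nfkbia (0.23 ± 0.21) and Osm (0.68 ± 0.63). Stat3 itself had 0.01 ± 0.20, Socs3, a target and brake of STAT3, had 0.15 ± 0.27, Cebpb 0.22 ± 0.29 and Cebpd 0.18 ± 0.34 in the authors' deposited table. Il6 was low, with a mean log2 CPM of -0.07, and its approximate interval of -1.27 to 0.96 leaves room for a change in either direction.

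Receptors and binding partners of these proteins ranged in log2 fold from -0.09 to 1.47. Among 19 genes, 16 log2 folds were positive, against 49.8% of all genes, with a median of 0.21. An unadjusted p under 0.05 was found for 4, all higher, against 3.1% of all genes, and an adjusted one for 0 (edgeR). The 4 were the Fc receptor genes Fcgr3 (0.60 ± 0.23) and Fcgr2b (0.52 ± 0.23), which bind pentraxins, the ficolin gene Fcna (1.47 ± 0.63) and Tlr4 (0.45 ± 0.22), in the authors' deposited table. The serum amyloid A receptor gene Fpr2 had -0.03 ± 0.48, Tlr2 -0.03 ± 0.26 and the lipoprotein receptor gene Scarb1 0.20 ± 0.24 there. Tnfaip6, whose product joins Ptx3 in the hyaluronan matrix, had 0.04 ± 0.56 in the authors' deposited table.

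Genes of other acute-phase proteins had mostly positive folds, and none of them passed the adjusted threshold. Of 26 genes, 23 had positive log2 folds, against 49.8% of all genes, with a median of 0.97. An unadjusted p under 0.05 was found for 13, all higher, against 3.1% of all genes, and an adjusted one for 0 (edgeR). Those with the smallest p in the authors' deposited table were the apolipoprotein genes Apoa1 (5.92 ± 1.63) and Apoa2 (2.93 ± 0.85), Ambp, and the endotoxin-binding protein gene Lbp (0.90 ± 0.26). The heme-binding protein gene Hpx had 4.67 ± 1.39, the protease inhibitor genes Serpina3m 4.47 ± 1.37 and Serpina3n 2.19 ± 0.80, and the haptoglobin gene Hp 1.47 ± 0.91 in the authors' deposited table. As background, Apoa1 and Apoa2 are lipoprotein genes that the liver makes without inflammation and that tend to fall in an acute-phase response. Both are counted among the 23 positive folds, and the cause of their folds was not tested. With the 4 genes that are also on the hepatocyte list set aside, 19 of 22 log2 folds were positive with a median of 0.91. Those 22 still include many genes that the liver expresses, such as Ambp, Hpx, Serpina3m, Serpina3n, Hp and Lbp. The median of 0.91 is therefore not free of liver genes. The part of liver transcripts in the folds of the 22 genes was not tested.

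**Figure D5:**
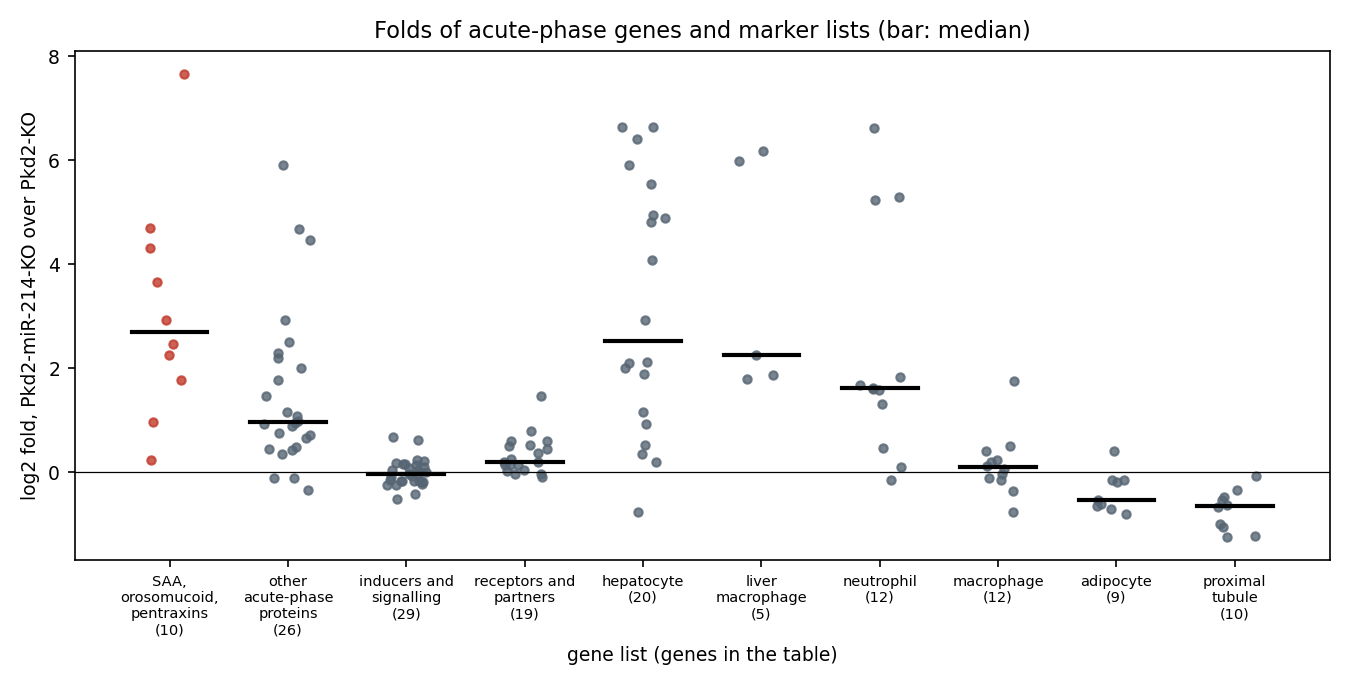
Log2 folds (y axis) of single genes (points) and their median (bar) for the 10 genes, other acute-phase genes, their inducers and receptors, and marker lists of cell types (x axis, genes in the table). The medians are 2.69 for the 10 genes, 0.97 for other acute-phase genes, -0.04 for inducers and 0.21 for receptors. For markers they are 2.53 (hepatocyte), 2.25 (liver macrophage), 1.62 (neutrophil), 0.10 (macrophage), -0.53 (adipocyte) and -0.65 (proximal tubule).

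Markers of cell types other than kidney epithelium are given beside these genes. Of 20 hepatocyte markers in the table, 19 had positive log2 folds with a median of 2.53, a lowest value of -0.75 (Mup3) and a highest of 6.64 (Ahsg). In the authors' edgeR test 14 had an unadjusted p under 0.05, all higher, and 1, Bhmt (4.90 ± 1.16), an adjusted one. Of all genes, 3.1% were higher without adjustment and 0.104% with it. The albumin gene Alb (6.64 ± 2.05), Ahsg (6.64 ± 1.98), Apoh (4.95 ± 1.33) and Cyp3a11 (6.42 ± 2.21) are typical of hepatocytes, and none of them passed in the authors' deposited table. For Alb and for Ahsg the SE exceeded that of all 500 genes nearest in level, and the list's median percentile was 99.5. Large SE were not particular to hepatocyte markers: the median percentile was 99.6 for adipocyte markers, 98.2 for other acute-phase genes and 95.8 for proximal tubule markers, against 49.2 for the inducers. Ttr (0.35 ± 0.38) and Serpina1a (0.19 ± 0.34) were near 0 in the authors' deposited table. The mean log2 CPM over all libraries was 7.11 for Alb and 3.22 for the median hepatocyte marker. The summed level per genotype was not analysed here, since the table holds no values per library. The part of liver transcripts in the folds of Saa1, Saa2, Saa4, Orm1, Orm2, Crp and Apcs was not tested. In whole tissue, more cells of a type and more RNA per cell cannot be told apart.

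Liver macrophage markers were positive in 5 of 5 genes (median 2.25, range 1.81 to 6.17), and Marco (5.99 ± 1.01) passed in the authors' deposited table. Clec4f (6.17 ± 2.05), Vsig4 (1.81 ± 0.78) and Timd4 (1.87 ± 0.91) did not pass there. Clec4f was low, with a mean log2 CPM of -2.58 against 2.63 for Marco. Which cells carried these transcripts was not tested. Neutrophil markers were positive in 11 of 12 (median 1.62). An unadjusted p under 0.05 was found for 8, all higher, against 3.1% of all genes, and an adjusted one for 0 (edgeR). The neutrophil list was led by Ngp (6.63 ± 1.75), Mpo (5.29 ± 1.63) and Camp (5.24 ± 1.75), then Ltf (1.63 ± 0.58), in the authors' deposited table. Ngp, Mpo and Camp were low, with mean log2 CPM of -0.48, -2.28 and -1.69. Csf3r (-0.16 ± 0.32), Cxcr2 (0.11 ± 0.45) and Mmp9 (0.47 ± 0.54) had mean log2 CPM of 2.96, 1.46 and 2.10 there, and their approximate intervals include 0. General macrophage markers had a median of 0.10 with 7 of 12 positive, and Cd163 (1.76 ± 0.35) passed in the authors' deposited table, while Mrc1 (0.51 ± 0.24) and Itgax (-0.75 ± 0.37) did not. Adipocyte markers, of a tissue that makes Saa3, were positive in 1 of 9 genes with a median of -0.53, but the approximate interval of each of the 9 includes 0, as for Adipoq (-0.15 ± 1.24). The positive one was Pck1 (0.40 ± 0.44). Its mean log2 CPM of 11.08 was near that of the proximal tubule gene Slc34a1 (11.29), so Pck1 cannot be read as a fat marker here. The median log2 fold was 0.23 for mesothelial, -0.23 for fibroblast and 0.21 for collecting duct markers. Single genes of these lists stood apart from the medians: the fibroblast proteoglycan genes Dcn (1.18 ± 0.31) and Lum (1.21 ± 0.47) and the proton pump subunit gene Atp6v0d2 (0.82 ± 0.26) had an unadjusted p under 0.05 and no adjusted one in the authors' edgeR test. Proximal tubule markers were negative in 10 of 10 genes, with a median of -0.65 and none past the adjusted threshold (edgeR), among them the urate transporter gene Slc22a12 (-1.24 ± 0.38).

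The X-linked RNA Xist, expressed in female cells, stood at a log2 fold of 10.21 ± 2.36 (adjusted p = 0.0168, edgeR) per the authors' deposited table and passed. The Y-linked genes Ddx3y (-0.23 ± 1.54), Eif2s3y (-0.14 ± 1.63), Kdm5d (-0.66 ± 1.40) and Uty (-0.39 ± 1.66) had approximate SE above 1.4 there. For these 4 Y-linked genes every approximate interval includes 0, but the intervals are too wide to show an equal sex make-up. Xist had a mean log2 CPM of 9.02, so with its fold the Xist signal lay almost wholly in Pkd2-miR-214-KO. By this marker the sex make-up of the genotypes differed, and sex cannot be told apart from genotype in any fold given here. The part of sex, and that of the immune cell markers, in the folds of the acute-phase genes was not tested.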

How the data were processed

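One table of 20138 genes was used. Per the submitters' processing notes, TopHat2 2.0.12, edgeR and the build mm10 were used, with settings not given in the sources used here. Per the file headers, the authors deposited for each gene a log2 fold, a mean log2 CPM, a likelihood ratio (a score), and both the raw and the adjusted p-value. Values per library were not analysed here, so depth and the spread between animals are unknown. The series text calls the 3 animals per genotype biological replicates.

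The approximate standard error (SE) was taken as the absolute log2 fold over the root of its likelihood ratio, and the 95% interval as 1.96 SE on either side. Both are rough at low counts. CPM per genotype was derived with the mean CPM as midpoint. The deposited p-values matched the chi-square tail within 6.25e-15, and the adjusted ones the Benjamini-Hochberg adjustment within 5.10e-14. The adjustment and SE were tested on simulated data.

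Positions, transcripts and shared stretches came from GENCODE M21, promoters from RefSeq on GRCm38.p6. Identity is over globally aligned bases without gaps. The members and the 14 other lists were chosen with earlier results of these data known. Named genes came from the members, genes past the adjusted threshold and up to 4 genes with the smallest p per list, 3 neighbours per side and the targeted locus; some of the 4 are given only through their list's counts. The remaining genes named (Adipoq, Nptx1, Il6, Il1b, Tnf, Stat3, Socs3, Cebpb, Cebpd, Fpr2, Tlr2, Scarb1, Tnfaip6, Hpx, Serpina3m, Serpina3n, Hp, Alb, Ahsg, Cyp3a11, Ttr, Serpina1a, Mup3, Csf3r, Cxcr2, Mmp9, Kap, Slc34a1, Eif2s3y) were picked after their values were seen. Il22, Mup20 and Ly6g matched no symbol, and Emr1 stood for Adgre1. Other adjustments, level limits and centrings were tried. Software was biopython 1.88, scipy 1.17.1, numpy 2.4.6, pandas 2.3.3 and Python 3.11.15.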

Additional observations from a re-analysis of the deposited data

How the results depend on the processing

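Of the 10 genes, 3 passed at adjusted p under 0.05, and 3 also passed with the likelihood ratio rescaled to the chi-square median (against 25 and 122 of all genes). With the Benjamini-Hochberg adjustment over genes of at least 0 or 1 mean log2 CPM, 1 passed in each case, Saa3 (adjusted p = 0.0153 and 0.0144, edgeR), because Saa4 and Orm2 were too low to be kept; 19 genes of the table passed in each case. None passed, a count of 0 in each case, with the Benjamini-Yekutieli adjustment, with Bonferroni or with an F distribution on 1 and 4 degrees of freedom. Under Benjamini-Yekutieli the adjusted p was 0.0855 for Orm2, 0.173 for Saa3 and 0.371 for Saa4 (edgeR likelihood ratio), where 14 genes of the table passed, as under Bonferroni, and under the F distribution 0 did. Without adjustment 6 of the 10 had a p under 0.05 (4.82% of all genes), 7 after rescaling (7.61%), 4 under the F distribution (1.2%) and 1 of the 2 kept at 0 mean log2 CPM or more (4.08%). The median log2 fold was 2.69 or 2.70 under the centrings tried, and 2.71 over the 2 genes kept by the level limit. All 10 folds stayed positive under both centrings, but the values subtracted were 0.00 and -0.0019, so no sign could change.

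No paired analysis was possible because values per library were not analysed here and the animal numbers of the genotypes differ. For the same reason, leaving out each animal in turn and DESeq2 were not run.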
